A study of Homo sapiens with 2 samples.

Results

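Circular RNAs (circRNAs) whose host gene acts in lipid or cholesterol metabolism were described here for the 4 hosts ACACA, CPT1A, OSBPL10 and SCAP. A circRNA was counted where the gene field of the deposited table, split at commas, held exactly 1 of these names, which gave 7 of the 1485 circRNAs in the table. CPT1A, ACACA and SCAP had 2 circRNAs each and OSBPL10 had 1. SCAPER, whose name contains that of SCAP, is another gene and its circRNA was not counted. The cells were SW620, a human colorectal cancer line derived from a lymph node metastasis. They were given HD-SB, the herb pair Hedyotis diffusa and Sculellaria barbata, at 1 mg/mL for 24 h, or served as the control, whose handling the labels do not describe further. RNA was cleared of ribosomal RNA and treated with RNase R, an enzyme that removes linear RNA and spares circles. There was 1 library per group, so the values below have no replicate error, no test was made, and HD-SB against control compares 2 libraries and not the conditions.

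A circRNA forms when the 3′ end of an exon is joined back to the 5′ end of the same or an upstream exon, and reads that cross this back-splice junction identify it. The hosts stand at different points of lipid metabolism. ACACA encodes acetyl-CoA carboxylase, which makes malonyl-CoA and commits carbon to fatty acid synthesis. CPT1A encodes the liver isoform of carnitine palmitoyltransferase, which passes long-chain fatty acids towards oxidation in mitochondria and is inhibited by malonyl-CoA. SCAP is the cholesterol-sensing escort that carries SREBP transcription factors from the endoplasmic reticulum to the Golgi when sterols are low, and ACACA is among the genes these factors act on. OSBPL10 belongs to the oxysterol-binding protein family, which moves sterols and phospholipids between membranes. A circRNA count shows how often a circle was read, not how much mRNA or protein its host makes.

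The positions in the table are printed as deposited, and their genome build was not established here. In the GRCh38 annotation of GENCODE 29, 5 of the 7 did not lie inside their host gene, nor did 80.3% of the 1312 circRNAs with a single host found there, so they are not to be read as GRCh38 positions. Exons were therefore assigned by distance alone. A circRNA was matched where exactly 1 pair of exon bounds in the GENCODE 29 models of its host lay as far apart as the circRNA spans, span being the end minus the start plus 1, and no position was carried from one build to another. Of the 1312 circRNAs, 1221 (93.1%) had such a match in a common transcript, and so did 6 of the 7 lipid host circRNAs. The match of OSBPL10 was 1 of 1330 combinations of an exon start with an exon end in its gene. Those of CPT1A were 1 of 840, those of SCAP 1 of 1638 and that of ACACA 1 of 7224. These counts include combinations in the wrong order and bounds of different transcripts, so they do not measure how specific a match is. The ends of the matched exons that meet at the back-splice are what sets these circles apart from the linear mRNA. For 4 matched circles that hold coding sequence alone, the junction is given 5′ to 3′ with the last 15 bases of the last exon in lower case and the first 15 bases of the first exon in capitals, as the reference transcripts of GENCODE 29 (GRCh38) have them.
OSBPL10 hsa_circ_0008549: gaaatgaattctaagGTACTTCGTACTGGA
CPT1A hsa_circ_0023276: gacactgtgaacaggCAACTGCATGTCCAG
CPT1A hsa_circ_0023249: tcttgccctgagacgGTGGAACAGAGGCTG
SCAP hsa_circ_0007291: caccctcaatggcggTATGTGGGTGCCCCG

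The circles with the most reads were short enough to be shown whole, as the spliced exons of the principal coding transcript. Lower case marks the first exon and capitals the second, and the last base of the capitals joins the first base of the lower case in the circle. These are reference exon sequences matched by distance. The reads themselves were not used here, so whether each circle keeps every exon between its ends was not measured.
OSBPL10 hsa_circ_0008549: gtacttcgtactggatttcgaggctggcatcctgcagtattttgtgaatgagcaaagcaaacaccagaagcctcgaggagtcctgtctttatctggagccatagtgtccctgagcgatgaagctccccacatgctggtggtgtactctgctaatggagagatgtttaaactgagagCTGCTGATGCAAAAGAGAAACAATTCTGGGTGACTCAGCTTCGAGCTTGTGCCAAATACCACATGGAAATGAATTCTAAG
CPT1A hsa_circ_0023276: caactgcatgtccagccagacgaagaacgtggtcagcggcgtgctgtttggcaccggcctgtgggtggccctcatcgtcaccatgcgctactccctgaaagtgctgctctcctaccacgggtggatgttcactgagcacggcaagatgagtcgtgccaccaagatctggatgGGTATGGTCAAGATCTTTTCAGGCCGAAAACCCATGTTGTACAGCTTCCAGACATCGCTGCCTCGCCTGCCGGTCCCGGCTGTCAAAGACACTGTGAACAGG

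The HD-SB library had 11570 listed back-splice reads over 1475 circRNAs and the control had 91 over 32, a 127.1-fold difference in listed reads, with 22 circRNAs listed in both. Values are counts per 1000000 back-splice reads (CPM), in which 1 read is worth 86.4 CPM in HD-SB and 10989 CPM in the control. The smallest listed value was taken as 2 reads, so a circRNA that is not listed was taken to have 0 or 1 read. The circRNA caller is not given, so whether its filters left out circRNAs with 2 or more reads was not tested. Of markers of the colon epithelium, 3 of 14 were hosts of a listed circRNA (EPCAM with 20 HD-SB reads over its circRNAs, VIL1 with 18 and EPHB2 with 16), while CDX2, CDH1 and the keratins of the list were not. Fibroblast and smooth muscle markers gave 0 of 10, endothelial markers 0 of 6 and leukocyte markers 1 of 10 (LCK, 9 reads).

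All 7 lipid host circRNAs were listed in the HD-SB library and none in the control. Together they had 49 HD-SB reads, or 0.424% of the library (0.313 to 0.560). This range and those below are exact 95% intervals (Clopper-Pearson). They hold counting error alone, as there is 1 library per group. They may be too narrow, because reads copied by amplification are not separate molecules. The 7 circles were 0.471% of the circRNAs in the table, so their share of reads was close to their share of circRNAs. Their median was 4 reads, against 5 over all circRNAs listed in HD-SB.

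OSBPL10, the sterol and phospholipid carrier, gave the most abundant circle of the 7. Its hsa_circ_0008549 (chr3:31917925-31921322, a span of 3398 bp) had 16 reads or 1383 CPM in HD-SB, 0.138% of the library (0.0791 to 0.225), and was not listed in the control. There were 99 circRNAs with more reads in HD-SB. Its span matched exons 2 and 3 of 12, of 176 and 80 bases, all coding, which correspond to codons 94 to 179 of 764. Some annotated transcripts hold more exon sequence between the same bounds, so the circle could be 256 to 380 bases long. The introns beside it were the longest of the matched lipid circles, with 101068 bases upstream and 46201 bases downstream in that transcript.

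CPT1A, the gate to fatty acid oxidation, had the most reads of the 4 hosts, 18 over its circRNAs. The circle hsa_circ_0023276 (chr11:68571468-68575106, 3639 bp) had 14 reads or 1210 CPM (0.121%, 0.0662 to 0.203), and hsa_circ_0023249 (chr11:68527037-68529155, 2119 bp) had 4 reads or 346 CPM (0.0346%, 0.00942 to 0.0885). Neither was listed in the control. The circles do not overlap and lie 42312 bp apart. The first matched exons 4 and 5 of 19 (codons 94 to 185 of 773) and the second exons 16 to 18 (codons 626 to 745), so they came from opposite ends of the coding sequence, the second from the part that encodes the catalytic region. The 5′ circle took 77.8% of the CPT1A reads (52.4 to 93.6), a 3.50-fold ratio within the library (1.10 to 14.6).

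ACACA, the enzyme of malonyl-CoA synthesis, had 9 reads on circles that share a bound. The circle hsa_circ_0000759 (chr17:35640168-35646430, 6263 bp) had 7 reads or 605 CPM (0.0605%, 0.0243 to 0.125), and hsa_circ_0043267 (chr17:35640168-35641871, 1704 bp) had 2 reads or 173 CPM (0.0173%, 0.00209 to 0.0624). Both were unlisted in the control. ACACA lies on the minus strand, so the shared position is the 3′ end of both circles and the longer circle contains the shorter. The shorter matched exons 4 and 5 of 56, of 133 and 139 bases (codons 76 to 167 of 2346). The longer had no pair of bounds at its exact distance. The nearest pair differed from that distance by 1 base and kept the shared 3′ exon. It added to the same 2 exons a 111-base exon that begins 5′ of them, for 383 bases, in 2 annotated transcripts. With 7 against 2 reads the interval of the ratio, 0.666 to 34.5, included an equal level.

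SCAP, the sterol sensor, had the fewest reads of the hosts, 6 over its circRNAs. The circle hsa_circ_0001292 (chr3:47476498-47484581, 8084 bp) had 4 reads or 346 CPM, and hsa_circ_0007291 (chr3:47466975-47470160, 3186 bp) had 2 reads or 173 CPM, with neither listed in the control. The first matched exons 2 and 3 of 23 and the second exons 4 to 8, so the circles abut in the spliced transcript without sharing an exon. The 6337 bp between them in the table equal the length of the intron between exons 3 and 4 in GENCODE 29. The first holds 98 bases before the start codon and codons 1 to 84 of 1279, and the second holds codons 85 to 346 in 785 bases, the longest exon sequence of the matched lipid circles. With 4 and 2 reads their levels could not be told apart (2-fold, 0.287 to 22.1).

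**Figure D1:**
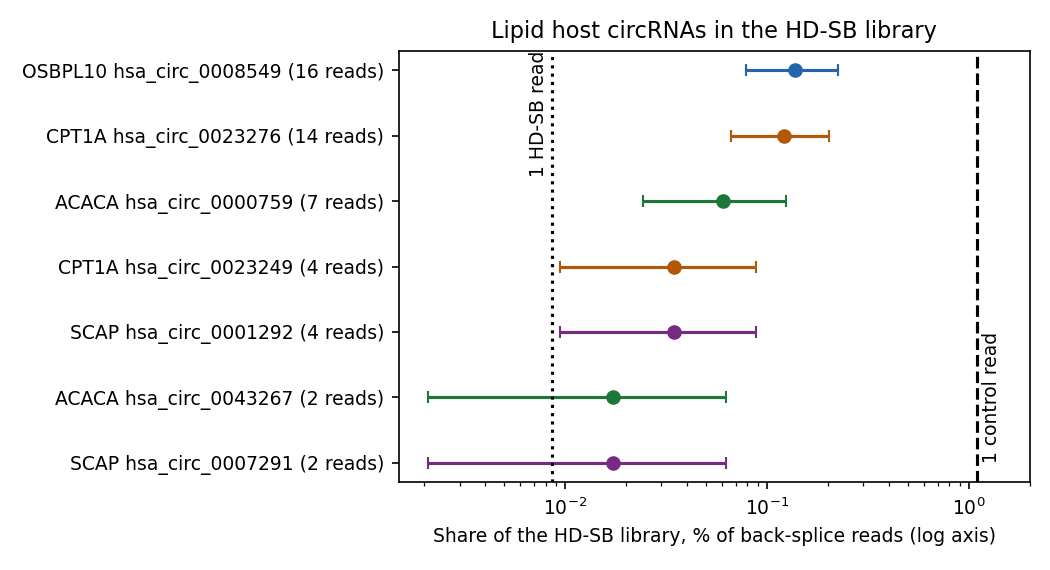
Share of each lipid host circRNA in the HD-SB library, in percent of back-splice reads on a log axis. Points are the single library, bars are 95% Clopper-Pearson intervals, colours are host genes, and the lines mark what 1 read is worth in HD-SB and in the control. All 7 points, from 0.0173% to 0.138%, lie below the 1.10% that 1 control read is worth.

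Among the 7 circles, the order by reads was OSBPL10 hsa_circ_0008549, CPT1A hsa_circ_0023276, ACACA hsa_circ_0000759, then SCAP hsa_circ_0001292 level with CPT1A hsa_circ_0023249, then SCAP hsa_circ_0007291 level with ACACA hsa_circ_0043267. Of the 21 pairs, the ratio interval excluded an equal level in 8, without adjustment for the number of pairs. Those 8 set the circles of OSBPL10 (16 reads) and CPT1A (14 reads) against the 4 circles of 2 or 4 reads, and no neighbours in the order differed beyond counting error. By host, CPT1A exceeded SCAP 3-fold (1.14 to 9.23), and the intervals of the other 5 pairs of hosts included equality.

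The comparison of HD-SB with control asks which circRNAs differ after treatment. A single control read would be 1.10% of that library, more than the 7 circles together held in HD-SB. At the HD-SB share, 0.385 reads of the 7 would be expected among 91. If each of the 7 had the 1 read that can go unlisted, the control share could reach 14.2%, which is far above the HD-SB share, so for these unlisted circles no difference could be told from the counts. For all 7 circles together the ratio of shares, HD-SB over control, would be at least 0.101 with 0 control reads and between 0.0660 and 15.5 with 1.

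A fixed size rule called a circRNA higher or lower at a 2-fold difference on the scale log2(value + 172.861 CPM), over circRNAs whose mean across the libraries was 216 CPM or more. Of the lipid host circRNAs 3 passed that filter, OSBPL10 hsa_circ_0008549 with a log2 ratio of 3.17, CPT1A hsa_circ_0023276 with 3.0 and ACACA hsa_circ_0000759 with 2.17, and all 3 were called higher, against 96.0% of the 797 circRNAs tested. For a circRNA listed in HD-SB alone the filter needs 5 HD-SB reads, so a circle that passed it had to be called, and the log2 ratio was set by the pseudocount. The 4 circles with 2 or 4 reads did not pass. None was called lower, against 4.02% of the circRNAs tested. The direction depended on the pseudocount: with 0.5 read added in both libraries, 0 were called higher and the same 3 were called lower. A further rule asked the interval of the ratio to exclude equality, with unlisted circles taken at both 0 and 1 read. None of the 7 was called, against 0 of 1485 higher and 2.02% lower in the table. None of the 7 could be called lower, because at 0 control reads the ratio has no upper end. With 1 control read the lower end was at most 0.01955 among the 7, far below equality. The absence of a call was set by the control listing and depth and is not a result about these circles.

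**Figure D2:**
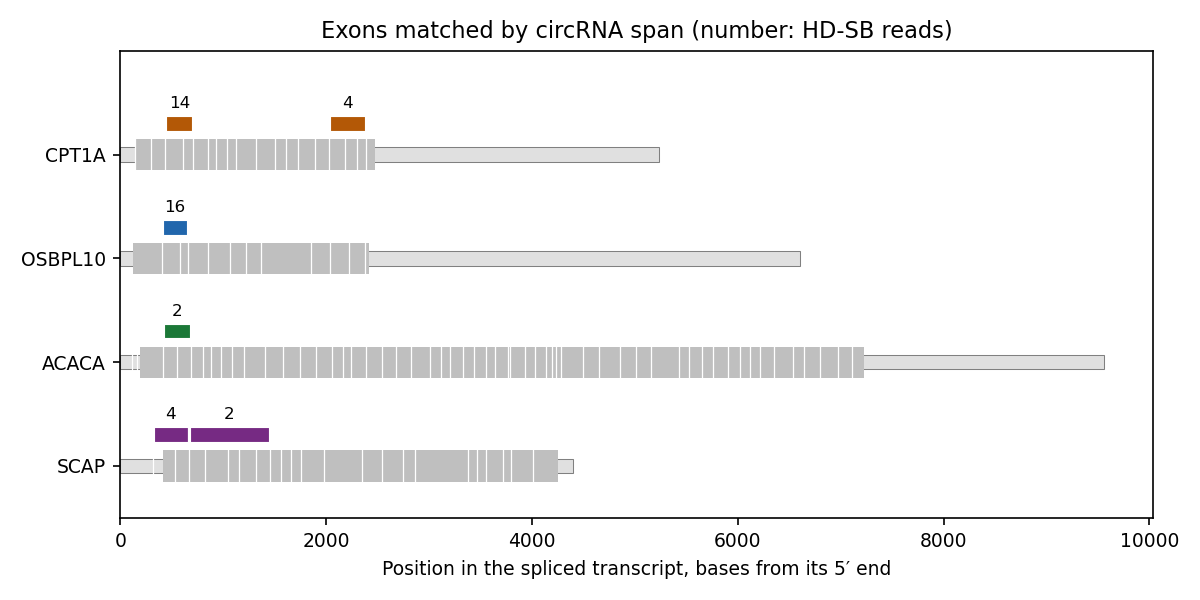
Matched exons of 6 lipid host circRNAs along the principal coding transcript of each host, in bases from its 5′ end. Grey bars are transcripts, taller where coding, white lines are exon bounds, and coloured blocks are circRNAs with their HD-SB reads above. The OSBPL10 and ACACA blocks, the 4-read block of SCAP and the 14-read block of CPT1A lie near the 5′ end. The 2-read block of SCAP follows its 4-read block and reaches codon 346 of 1279. The 4-read block of CPT1A ends 1 exon before the last.

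The choice of hosts did not use the structure of the circles, which varied among them. All 7 had a circBase identifier, against 75.6% of the table. Their spans ran from 1704 to 8084 bp with a median of 3398 bp, against 4111 bp over all circRNAs. The 6 matched circles had a median exon length of 312 bases, against 370 over the 1221 matched in the table (quartiles 312 and 469), and the circles of OSBPL10 (256 bases), ACACA (272) and CPT1A hsa_circ_0023276 (274) lay below the lower quartile. Of the 6 circles 4 had 2 exons, against 33.0% of all matched. Coding sequence alone filled 5 of 6, against 80.4%. A circle began at exon 2 in 2 of 6, against 32.1%. The exon length was a multiple of 3 in 1 of 6, CPT1A hsa_circ_0023249 with 360 bases, against 37.2%. The GC content of the exons ran from 43.75% in ACACA hsa_circ_0043267 to 57.7% in CPT1A hsa_circ_0023276, with a median of 53.0%, against 49.7%. The intron upstream of the circle had a median of 19522 bases, against 7396, but it ranged from 939 bases at CPT1A hsa_circ_0023249 to the 101068 of OSBPL10. With 6 circles from 4 genes these counts describe the circles and were not tested against the table.

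**Figure D3:**
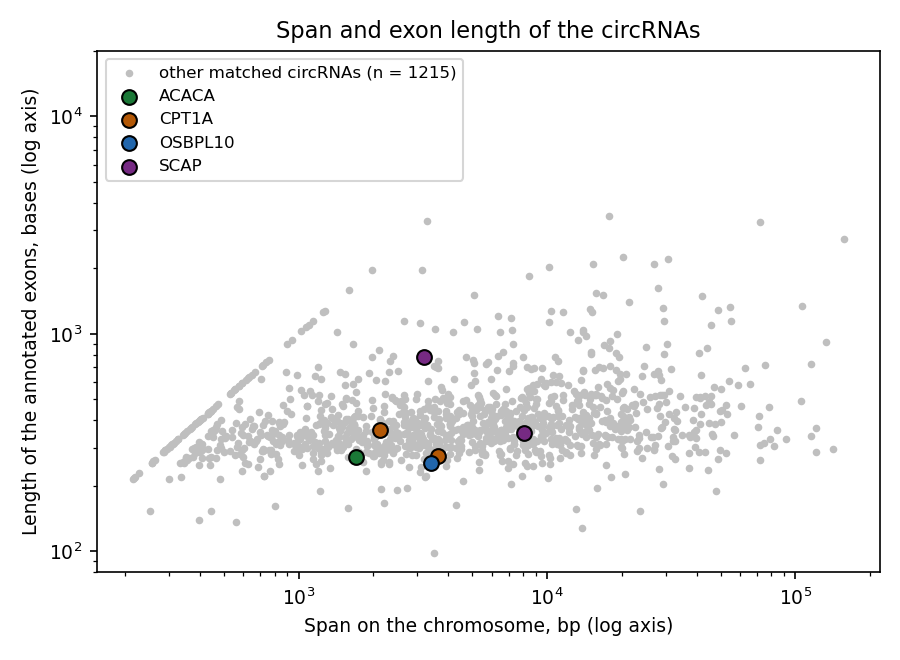
Span on the chromosome and length of the annotated exons for the matched circRNAs, both on log axes. Coloured points are the 6 matched lipid host circRNAs and grey points the other 1215. The coloured points lie inside the grey cloud, SCAP hsa_circ_0007291 high in it at 785 bases and OSBPL10 hsa_circ_0008549 low at 256 bases.

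The series names hsa-miR-204-5p, a miRNA, as a partner of another circRNA. Its mature sequence in RefSeq (GRCh38.p14), with the seed, bases 2 to 8, in capitals, is the following.
hsa-miR-204-5p: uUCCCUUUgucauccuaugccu
The complement of that seed, AAAGGGA, was searched on the transcript strand of the matched circles, across the junction as well. None of the 6 lipid circles held it, against 4.34% of the 1221 matched circRNAs and 4.17% of the 1078 in the same range of lengths. A match or its absence is a property of these letters and says nothing of binding.

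Other genes of lipid metabolism were counted over gene lists. The share of hosts over all genes was not computed, so these counts are not read as low or high. Over 6 lists with 148 genes, 10 genes were hosts, the 4 described and 6 others, with 15 circRNAs and 109 HD-SB reads in all (0.942%, 0.774 to 1.13) and no listed control read. The median over these 15 circRNAs was 6 reads. The size rule was passed by 9 of them, all called higher as their listing requires, with a median log2 ratio of 2.58 against 2.17 over all tested. In fatty acid synthesis and desaturation ACACA was the only host of 25 genes, so FASN, SCD and ACLY were not listed. In fatty acid oxidation CPT1A was joined by ETFA, a subunit of the electron transfer flavoprotein (hsa_circ_0003620, 10 reads), of 29 genes. SCAP was the only host of 12 genes of SREBP control. Cholesterol synthesis gave 0 hosts of 21 genes and phospholipid and triglyceride synthesis 0 of 31. Sterol uptake and transport held 6 hosts of 30 genes, with 66 reads. OSBPL2, another member of the OSBPL10 family, led them with 17 reads on 2 circRNAs. VAPA, an endoplasmic reticulum anchor for oxysterol-binding proteins, had 11 reads on 1 circRNA (hsa_circ_0006990), and VAPB and OSBP followed with 8 and 3.

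**Figure D4:**
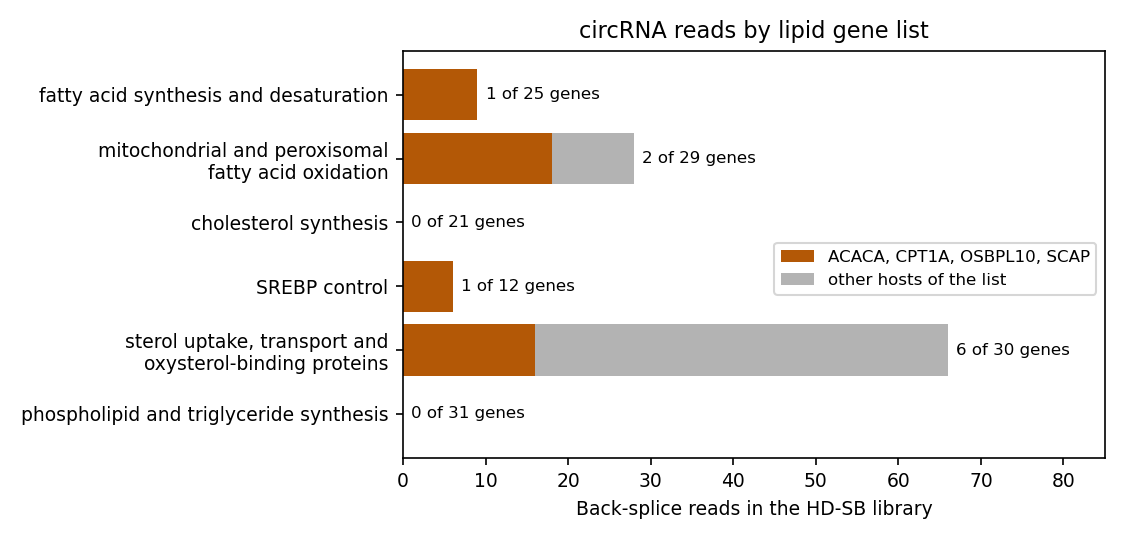
HD-SB back-splice reads of each lipid gene list, with the 4 described hosts in orange and other hosts in grey, and the number of genes that were hosts beside each bar. Sterol uptake and transport had the most reads, 66, of which 16 were of OSBPL10, and cholesterol synthesis and phospholipid synthesis had none.

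Of 1069 genes that were the single host of an HD-SB circRNA, 200 (18.7%) had 2 or more, and 3 of the 4 lipid hosts did. CPT1A ranked 114 by reads among these hosts, OSBPL10 131, ACACA 287 and SCAP 458, with ties, against a median of 6 reads per host. The hosts closest to each in summed HD-SB reads, then in number of circles and in span, over 2 libraries, were PCCA and DNA2 for CPT1A (18 reads each), EPHB2 and FUT8 for OSBPL10 (16 reads each), CEP72 and MYH9 for ACACA (9 reads each), and TBC1D8 and DDI2 for SCAP (6 reads each). They were picked only from hosts not listed in the control, so that shared state was set by the choice and is not a result. At such low counts many hosts are as close, as 15 others had the 9 reads and 2 circles of ACACA and 9 others the 6 reads and 2 circles of SCAP.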

How the data were processed

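SW620 libraries from RNase R treated RNA, 1 per group, were analysed. The submitters' processing notes name FastQC, HISAT2 2.1.0 and GRCh38 and give no role for them, and the circRNA caller is not given in the sources used here. TPM is the unit per the file headers, but the values the authors deposited act as CPM (reads per 1000000 back-splice reads), since 100% of those listed came out as whole reads within 0.01 read. Whole reads were recovered from those steps, with the smallest listed value taken as 2 reads and 0.001 read as not listed. The planned control limit of 3 counts assumes a full count and was replaced in the text by 1 that allows 1 unlisted read per circRNA. Exon matching, sequences and the miRNA search were added after the values were seen and used the GENCODE 29 annotation and transcripts, taking the principal coding transcript with both bounds. The interval rule and read recovery were tested on simulated data, and the size rule and exon matching on small made-up cases with known answers. Every lipid host circRNA was named, with at most 3 further hosts per list by HD-SB reads, the hosts closest in reads, and genes added after their values were seen (VAPB, OSBP and unlisted genes). Members and lists were chosen with earlier results of these data known. Python 3.11.15, scipy 1.17.1 and pandas 2.3.3 were used. Some items are not reported here by name or sequence.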

Additional observations from a re-analysis of the deposited data

How the results depend on the processing

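The share of HD-SB reads held by the lipid host circRNAs, 0.424%, was 0.285% without OSBPL10, whose circle is also the most abundant, and 0.268% without CPT1A, through fewer circRNAs, and it stayed within its interval under the other 4 choices. The control limit of 3.30% that a count of 0 allows was 3.97% as a Clopper-Pearson upper end and 14.2% with 1 unlisted read per circRNA. The 3 circRNAs called at least 2-fold higher became 7 with no filter, 2 with a pseudocount 4 times larger or the top 25% of means (ACACA hsa_circ_0000759 was lost in both), 0 where 0.5 read was added to both libraries and 0 when the interval had to exclude equality, and the 0 called lower became 3 with 0.5 read, which is worth more CPM in the control. The median span of 3398 bp was 3691 bp with 1 value per host and 3639 bp weighted by reads. Of the 7 circRNAs 3 had at least 5 HD-SB reads. Chosen after the data were seen, a tolerance of 1 base gave exon pairs for 7 circRNAs in place of 6, and the longest annotated forms gave a median exon length of 355 bases in place of 312. No paired analysis was possible because there is 1 library per group. Comparisons of HD-SB with control are limited by the control depth of 91 reads, and those among circles by their 2 to 16 HD-SB reads.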
